A study of Homo sapiens with 2 samples.

Results

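The temporal identity genes of neural progenitors, 10 of the 62704 genes counted, were followed in human brain organoids. They were taken by gene name and fall into 6 early genes (LIN28A, LIN28B, HMGA2, IGF2BP1, IGF2BP2 and IGF2BP3) and 4 late genes (NFIA, NFIB, NFIX and ZBTB20), and all 10 were found in both libraries. The organoids were grown from H9, an established line of human embryonic stem cells, and split-seq was used to count their transcripts, a method that labels RNA inside fixed cells or nuclei by moving them through several plates of barcoded wells. The library of cells pooled control organoids (CO) at days 45, 55 and 70, organoids dissociated at day 45 and reaggregated (DISS) at days 48, 55 and 70, and organoids freed from Matrigel at day 13 and constrained in 3% agarose (CONS) at day 55. The library of nuclei held day 45 material, which its label gives as control, dissociated and embedded and the study's methods as CO nuclei from whole organoids and cell suspensions. All conditions of a library share the H9 line, and the labels name no edit of it. No barcode carries a condition, so each library is 1 sample, no groups were compared and no test between conditions was possible.

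The early genes belong to the LIN28 and let-7 circuit. LIN28A and LIN28B are RNA-binding proteins that block the maturation of let-7 microRNAs, and let-7 in turn lowers LIN28, HMGA2 and the IGF2BP family, so that these genes are high in young tissue and decline as let-7 accumulates. HMGA2 is a chromatin protein known to sustain self-renewal of young neural stem cells, and IGF2BP1, IGF2BP2 and IGF2BP3 are paralogous proteins that bind and stabilize mRNA. NFIA, NFIB and NFIX are transcription factors of the nuclear factor I family, which rise later in cortical progenitors and are known for the onset of gliogenesis, while ZBTB20 is a zinc finger repressor of later progenitors and hippocampal neurons.

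The seed of let-7, bases 2 to 8 of the mature microRNA, is shared by all 9 mature let-7 family members of the RefSeq table. The 3 shown, with the seed in capitals, differ from each other outside it, and the number of matches to the seed differs among the 10 genes.
hsa-let-7a-5p: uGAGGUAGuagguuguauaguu
hsa-let-7i-5p: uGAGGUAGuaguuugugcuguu
hsa-miR-98-5p: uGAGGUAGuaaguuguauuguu

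The reverse complement of the seed, CTACCTC, was searched on the sense strand of the 3′ UTR of the main transcript of each gene (GENCODE release 44, GRCh38). HMGA2, LIN28B and IGF2BP1 each held 4 matches in 3′ UTRs of 2999, 4549 and 6701 bases. LIN28A, IGF2BP2, IGF2BP3, NFIA and ZBTB20 each held 1, the last in a 3′ UTR of 24505 bases, and NFIB and NFIX held 0. Of 19205 protein-coding genes, 9.71% had at least 1 match and 0.188% had at least 3. Among 3′ UTRs within 20% of the same length, at least 4 matches occurred in 0.0905% for HMGA2, 0.196% for LIN28B and 0.534% for IGF2BP1, and at least 1 match occurred in 35.8% for NFIA. A match is a run of letters and not a measured site, and the mature microRNA was not measured in these libraries. The 4 matches of HMGA2 and LIN28B, and the single matches of LIN28A and NFIA, are shown in windows of 30 bases of the 3′ UTR with the match in capitals.
HMGA2 chr12:65963313-65963319: gccaacgttcgatttCTACCTCagcagcag
HMGA2 chr12:65964548-65964554: ccccactactcaataCTACCTCtgaatgtt
HMGA2 chr12:65964960-65964966: ttgacttgcaaagacCTACCTCcagacttc
HMGA2 chr12:65965813-65965819: aatcaaaacacactaCTACCTCttaagtcc
LIN28B chr6:105078827-105078833: acccggttgcaaagtCTACCTCatgcaagt
LIN28B chr6:105081254-105081260: tactgatgatagtaaCTACCTCtgagtttg
LIN28B chr6:105081436-105081442: gtttacagcaaaaggCTACCTCatagttga
LIN28B chr6:105082875-105082881: aaatgatggtgttgaCTACCTCttgaatca
LIN28A chr1:26427363-26427369: gcacagcctattgaaCTACCTCatttttgc
NFIA chr1:61461774-61461780: catacagtggaagtgCTACCTCtaatctaa

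**Figure D1:**
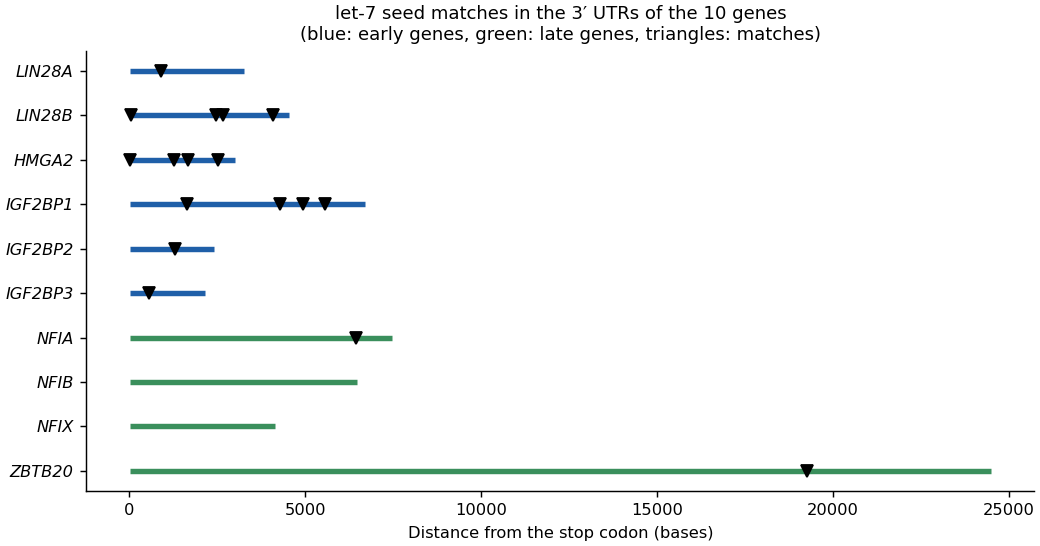
Positions of CTACCTC in the 3′ UTRs of the 10 genes, as distance in bases from the stop codon, with each bar as long as the 3′ UTR. HMGA2, LIN28B and IGF2BP1 hold 4 matches each, NFIB and NFIX none.

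Barcodes entered when they held over 500 genes and over 1000 transcripts, of which up to 20% could be mitochondrial, and this left 20178 cells (median 2615 transcripts) and 14228 nuclei (median 3890). Each barcode was thinned to 1000 transcripts to assign it to a marker class. Radial glia-marker (RG-marker) barcodes had at least 3 of 12 RG markers, such as SOX2, PAX6 and SLC1A3, and at most 1 of 12 neuronal markers, such as DCX, STMN2 and MYT1L, and neuron-marker barcodes the reverse. There were 2760 RG-marker and 4521 neuron-marker cells, and 2520 RG-marker and 3886 neuron-marker nuclei. A further 2440 cells and 232 nuclei had at least 3 markers of each list. Of the genes that the rule did not use, TBR1, a factor of deep layer neurons, was at 0.0987 transcripts per 10000 in RG-marker and 0.915 in neuron-marker cells. Of 9 layer genes, TBR1 among them, 2 were at least 2-fold higher in neuron-marker cells, as were 6.09% of all genes, and in nuclei 2 were higher in the neuron-marker class (11.6% of all genes) and 3 in the RG-marker class (13.5%). Summed choroid plexus markers were at 12.2 per 10000 in RG-marker and 7.24 in neuron-marker cells, and at 3.39 and 5.02 in nuclei. The classes lie on a range, since 1374 RG-marker cells had exactly 3 RG markers and 1705 other cells, with at most 1 neuronal marker, had 2. The libraries shared 99 barcode names, and doublets were not removed. Wells held 39 to 2606 barcodes in the cells and 567 to 2371 in the nuclei.

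HMGA2 (ENSG00000149948, chr12:65824460-65966291 in GRCh38) was the early gene that set the classes furthest apart. Its pooled level was 12.8 transcripts per 10000 in RG-marker cells (95% exact Poisson interval 12.6 to 12.9) and 3.55 (3.49 to 3.61) in neuron-marker cells. In nuclei the levels were 14.7 (14.5 to 14.9) and 2.53 (2.46 to 2.60). HMGA2 was thus 3.60-fold higher in RG-marker cells and 5.82-fold higher in RG-marker nuclei, with log2 ratios of neuron-marker over RG-marker of -1.85 and -2.54. The direction was the same in 27 of 27 wells of the cells that held at least 20 barcodes of each class, in 12 of 12 wells of the nuclei, and in each of the 8 and 2 sub-libraries, where the log2 ratio ran from -2.45 to -1.56 and from -2.64 to -2.43. These intervals cover counting error only, and the wells and sub-libraries are divisions of 1 library and not replicates of a condition.

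Of the 10 genes, all 10 had at least 100 counts over both classes in the cells and 9 in the nuclei, where LIN28A fell short with 13 counts. At a ratio of at least 2-fold, HMGA2 was the 1 gene higher in RG-marker cells, where 5.88% of all 19142 genes with enough counts were, and NFIB the 1 gene higher in neuron-marker cells, against 6.09% of all genes. In nuclei, HMGA2 and ZBTB20 were higher in the RG-marker class (13.5% of 14023 genes) and NFIB in the neuron-marker class (11.6%). The median log2 ratio was -0.33 over the early and 0.45 over the late genes in cells, beside 0.0027 over all genes. In nuclei it was -0.57 over the 5 early genes and 0.30 over the late genes, beside -0.14 over all genes.

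The other early genes differed less between the classes. IGF2BP3 (ENSG00000136231, chr7:23310209-23470491) was at 7.34 per 10000 in RG-marker and 4.95 in neuron-marker cells, and at 7.52 and 3.93 in nuclei, log2 ratios of -0.57 and -0.94. IGF2BP1 (ENSG00000159217, chr17:48997385-49056145) was at 1.89 and 1.27 in cells and at 1.70 and 1.15 in nuclei, a log2 ratio of -0.57 in both. Both were higher in the RG-marker class in 12 of 12 wells of the nuclei, and in 27 (IGF2BP3) and 24 (IGF2BP1) of 27 wells of the cells. IGF2BP2 (ENSG00000073792, chr3:185643130-185825042) was at 8.34 and 7.83 in cells and at 10.4 and 8.23 in nuclei, with log2 ratios of -0.09 and -0.34, and was higher in the RG-marker class in 23 of 27 and 12 of 12 wells. None of the 3 reached 2-fold. Reads of paralogs such as the IGF2BP or NFI genes could be split between them where their sequence is alike.

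The LIN28 genes, which head the circuit, had few counts. LIN28B (ENSG00000187772, chr6:104936616-105083332) was at 0.815 per 10000 in RG-marker cells (0.777 to 0.854) and 0.989 in neuron-marker cells (0.957 to 1.02), and at 1.00 and 1.08 in nuclei, log2 ratios of 0.28 and 0.10. The interval of the latter, up to 0.20, included 0. After thinning, with every barcode weighed the same, LIN28B was at 0.899 in RG-marker and 0.958 in neuron-marker cells. It was detected in 8.19% (7.19 to 9.27) and 8.67% (7.87 to 9.53) of them, with intervals that overlap. LIN28A (ENSG00000131914, chr1:26410817-26429728) had 38 counts in 21577723 transcripts of RG-marker cells and 83 in 37630563 of neuron-marker cells, that is 0.018 and 0.022 per 10000, and 3 and 10 counts in the nuclei. After thinning, LIN28A was seen in 3 of 2760 RG-marker cells and in 0 of 2520 RG-marker nuclei, which allows a share of up to 0.146% by the exact binomial interval. That limit is on nuclei with a LIN28A transcript among 1000 drawn, not on nuclei that express the gene, and without thinning 0.119% of the RG-marker nuclei held one.

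Among the late genes, NFIB and NFIA were higher in the neuron-marker class. NFIB (ENSG00000147862, chr9:14081843-14398983) was at 15.8 per 10000 in RG-marker cells (15.6 to 16.0) and 33.9 in neuron-marker cells (33.7 to 34.1), and at 14.5 (14.3 to 14.7) and 38.5 (38.2 to 38.8) in nuclei. That is 2.14-fold in cells and 2.65-fold in nuclei. NFIA (ENSG00000162599, chr1:60865259-61462788) was at 23.6 and 36.1 per 10000 in cells and at 24.9 and 47.6 in nuclei, ratios of 1.53 and 1.91 that did not reach 2-fold. The neuron-marker class was the higher for NFIB in 26 and for NFIA in 25 of 27 wells of the cells, and for both genes in 12 of 12 wells of the nuclei.

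ZBTB20 and NFIX did not follow the other late genes. ZBTB20 (ENSG00000181722, chr3:114314500-115147292) was higher in the RG-marker class, at 6.49 per 10000 against 3.72 in cells, or 1.75-fold, and at 9.20 against 2.45 in nuclei, or 3.76-fold, in 26 of 27 and 12 of 12 wells. Under the stricter marker rule ZBTB20 passed 2-fold in cells too, but the share of all genes that did so under that rule was not taken. NFIX (ENSG00000008441, chr19:12995475-13098796) was at 1.54 per 10000 in RG-marker and 1.87 in neuron-marker cells and at 0.938 and 0.749 in nuclei. Its log2 ratio was 0.28 in cells (0.22 to 0.34) and -0.32 in nuclei (-0.44 to -0.21), neither of them 2-fold. The neuron-marker class was the higher in 17 of 27 wells of the cells and in 3 of 12 of the nuclei. Over the 8 sub-libraries of the cells the log2 ratio of NFIX ran from -0.035 to 0.49, on both sides of 0. Over the 2 of the nuclei it ran from -0.42 to -0.25.

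**Figure D2:**
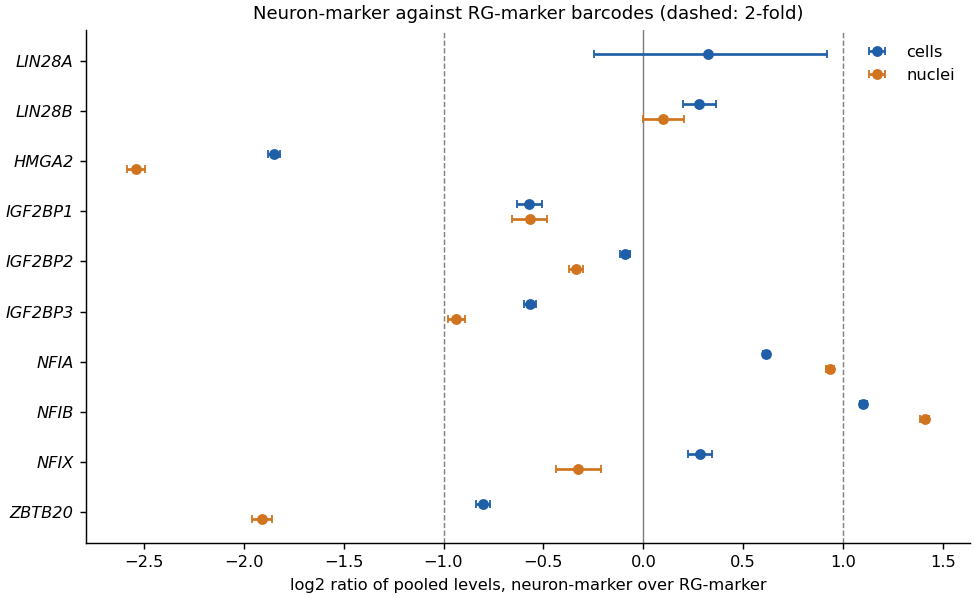
log2 ratio of the pooled level in neuron-marker over RG-marker barcodes for each gene, in cells and nuclei, with 95% exact counting intervals and dashed lines at 2-fold. HMGA2 lies at -1.85 and -2.54 and NFIB at 1.10 and 1.41, while NFIX lies on opposite sides of 0.

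Since a longer gene can give more counts, genes were set against each other per 100 kb of gene. Whether counts rise in proportion to gene length was not tested, and the order depends on this division. Without it NFIA led in RG-marker cells at 23.6 per 10000, before NFIB at 15.8 and HMGA2 at 12.8. In RG-marker cells the order of the levels was HMGA2 at 9.0 transcripts per 10000 and 100 kb, NFIB at 4.98, IGF2BP2 at 4.59, IGF2BP3 at 4.58, NFIA at 3.95, IGF2BP1 at 3.22, NFIX at 1.49, ZBTB20 at 0.779, LIN28B at 0.555 and LIN28A at 0.0931. IGF2BP2 and IGF2BP3 did not differ beyond their counting intervals. In neuron-marker cells NFIB led with 10.7, followed by NFIA with 6.03, and HMGA2 stood at 2.50, between IGF2BP3 (3.09) and IGF2BP1 (2.17). In nuclei HMGA2 led the RG-marker class with 10.4 and NFIB the neuron-marker class with 12.1.

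Cells with at least 2 of 7 markers of intermediate progenitors (164 barcodes, of which 28.7% were also neuron-marker) had the highest NFIA of the classes, at 54.2 per 10000 (52.9 to 55.5), and the highest NFIX, at 3.06 (2.75 to 3.40), while their HMGA2 was at 4.6 (4.22 to 5.01). After thinning, with every barcode weighed the same, these levels were 51.8, 2.68 and 6.10, each outside its counting interval. HMGA2 of neuron-marker cells was at 3.51 by that measure. With 18 such nuclei, no level is given for that library. In choroid-marker barcodes NFIB was at 8.58 per 10000 in cells and 4.79 in nuclei, and LIN28B at 0.370 and 0.245, in each case the lowest of the classes given. HMGA2 was at 2.73 and 2.11 there, and at 2.15 and 2.24 in barcodes with Cajal-Retzius markers such as RELN and TP73. ZBTB20 in hem-marker barcodes, which carry markers of the cortical hem such as RSPO2 and WNT8B, was at 6.20 in cells and 8.57 in nuclei, with intervals that overlapped those of RG-marker barcodes.

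Free RNA adds to the counts of every barcode. In barcodes of 10 to 100 transcripts, taken as background, HMGA2 was at 6.73 per 10000 in cells and 7.86 in nuclei, above its level in neuron-marker barcodes. NFIA and NFIB were at 29.7 and 23.9 in the background of the cells, between the classes. LIN28B was at 0.814 in the background, within the counting interval of RG-marker cells, and its 0.370 in choroid-marker cells lay below that. ZBTB20 was at 5.35 and 6.44, below the RG-marker class in both libraries. The part of this background in the levels was not tested.

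**Figure D3:**
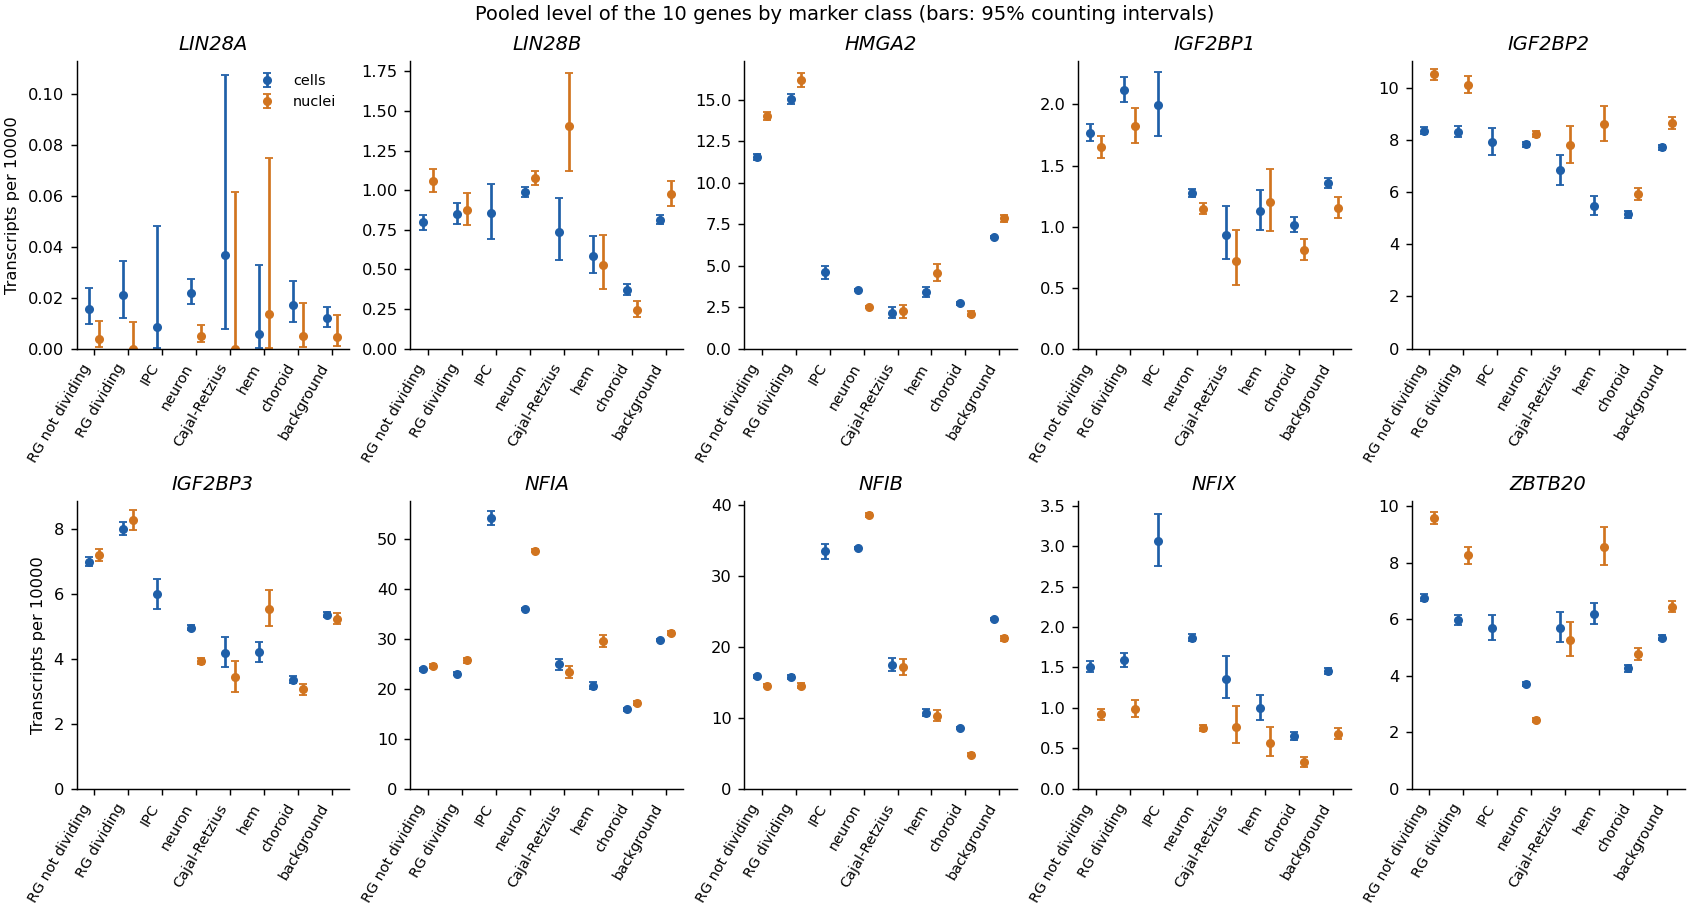
Pooled level of each gene in transcripts per 10000 by marker class and in the background, for cells (blue) and nuclei (orange), with 95% exact Poisson intervals. HMGA2 is highest in RG-marker barcodes and NFIA and NFIX of the cells in IPC-marker barcodes, while NFIB of the cells is at 33.9 in neuron-marker and 33.4 in IPC-marker barcodes, with intervals that overlap.

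Within the RG-marker class, barcodes with at least 2 of 10 division markers made up 31.8% of cells and 23.6% of nuclei. HMGA2 was at 15.05 per 10000 in these and 11.5 in the rest of the cells, and at 16.2 and 14.0 in nuclei, log2 ratios of 0.38 (0.35 to 0.42) and 0.20 (0.16 to 0.25). IGF2BP3 was higher by 0.20 on the log2 scale in both libraries, and ZBTB20 lower, with log2 ratios of -0.18 and -0.22. LIN28B was lower in the dividing nuclei, with -0.27, and at 0.09 in cells. NFIA lay at -0.05 and 0.06. No gene of the 10 with a value reached 2-fold, which 2.82% of all genes did in cells and 3.46% in nuclei.

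After thinning, transcripts of early and late genes were found in the same RG-marker barcode at shares close to the product of their single shares. In other classes the intervals of some pairs lay above the product. HMGA2 was detected in 57.8% of RG-marker cells (95% exact binomial interval 55.9 to 59.6) and NFIA in 84.8%, and both in 49.4% (47.5 to 51.3), where the product of the 2 shares is 49.0%. In RG-marker nuclei HMGA2 was detected in 67.0%, NFIA in 86.2% and both in 58.6% (56.6 to 60.5), with a product of 57.8%. HMGA2 with ZBTB20 was found in 24.6% of RG-marker cells (23.0 to 26.2) against a product of 25.4%, and in 36.2% of nuclei against 36.2%. The intervals of these 4 shares held the product. Each interval is that of the joint share alone, not of its difference from the product. Holding the product therefore does not show that the genes were detected independently, and the difference was not tested. Pairs with a gene of few counts were seldom found, with HMGA2 and NFIX in 7.75% of RG-marker cells, IGF2BP3 and NFIX in 6.74%, and LIN28B with a late gene in 1.2% (NFIX) to 7.28% (NFIA). In neuron-marker cells HMGA2 was detected in 26.2% (24.9 to 27.5), beside 21.7% (19.4 to 24.2) in choroid-marker cells. HMGA2 with NFIA was found in 24.0% of neuron-marker cells (22.7 to 25.2), with a product of 23.2%, and in 14.95% of neuron-marker nuclei (13.8 to 16.1), above the product of 13.4%. HMGA2 with ZBTB20 was found in 9.44% of neuron-marker cells (8.61 to 10.3), above the product of 7.88%. The median depths were 3990 transcripts in RG-marker, 3217 in neuron-marker and 3222 in choroid-marker cells, and without thinning HMGA2 was detected in 82.1%, 56.8% and 51.8% of them.

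Of 17 other genes listed around LIN28 and let-7, 16 had enough counts in cells and 1 was called in each direction, with 1 higher in neuron-marker and 2 in RG-marker among 15 in nuclei. Beside the background of 5.88% (RG-marker) and 6.09% (neuron-marker) of all genes in cells and 13.5% and 11.6% in nuclei, these counts are near the share over all genes and are no result about the list. MIR99AHG, host of a let-7 cluster, was at 7.42 per 10000 in RG-marker and 3.12 in neuron-marker cells and at 10.2 and 2.74 in nuclei. TRIM71, a let-7 target of early embryos, was at 0.0343 and 0.0733 in cells and was the gene higher in the neuron-marker class in both libraries. TUT4, which tags the let-7 precursor with LIN28, was at 3.92 and 3.64, and IGF1R, the IGF1 receptor, at 4.04 and 5.65 in cells. In nuclei CCND2, a cyclin, was also higher in the RG-marker class, at 3.83 against 1.40. The median log2 ratio of the list was -0.12 in cells and -0.29 in nuclei.

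Further lists covered progenitor, glial and layer genes, whose counts of genes called stand beside the same backgrounds of 5.88% and 6.09% in cells and 13.5% and 11.6% in nuclei. Of 10 early progenitor genes, 6 were higher in the RG-marker class in cells and 6 of 9 in nuclei, among them LIX1 (0.469 against 0.0896 in cells) and LHX2 (3.69 against 1.69), with medians of -1.28 and -1.34. NR2F2, named after its values were seen, was the 1 gene of this list higher in neuron-marker nuclei, at 0.141 against 0.0685. Of 17 astroglial genes, 13 had enough counts in cells, with 7 higher in RG-marker barcodes and a median of -1.17, and 6 in nuclei, with 3 higher and a median of -1.04. SOX9, a factor that acts with NFIA, was at 0.765 and 0.233 in cells, while SLC1A2, a glutamate transporter, was at 0.544 and 2.02 and was the 1 gene of the list higher in the neuron-marker class in both libraries. Of 8 outer radial glia genes, 3 were higher in RG-marker cells and all 6 with enough counts in RG-marker nuclei, led by PDGFD (1.21 against 0.119). Of 9 layer genes, BCL11B and TBR1 were higher in the neuron-marker class of both libraries, and CUX1, POU3F2 and POU3F3 in RG-marker nuclei.

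The spread over first-round wells was described in RG-marker barcodes, in the 19 wells of the cells and 12 of the nuclei with at least 50 of them. HMGA2 ran from 0.991 per 10000 (0.690 to 1.38) in well D12 over a median of 11.7 to 31.5 (30.03 to 32.9) in well A3, a 31.7-fold range. In the nuclei it ran from 11.8 over 14.4 to 16.3, a 1.38-fold range. The range in the cells rests on D12, in which 28.5% of barcodes carried choroid markers, and it was 6.93-fold without that well. The RG-marker barcodes of D12 themselves had the lowest summed RG markers of the 19 wells, at 26.8 per 10000 beside a median of 44.2. Their summed choroid and hem markers were the highest, at 53.2 and 11.3 beside medians of 9.79 and 0.938. The HMGA2 range of the cells was 2.65-fold in the 9 wells with at least 100 RG-marker barcodes and 1.68-fold in the 7 wells left above 3000 transcripts. The first of these filters leaves out D12 and all 5 wells with the highest levels, A3, A4, A11, B9 and C10, which had 53 to 71 RG-marker barcodes, so that the smaller range is set by the wells that remain. The second also drops wells, so its range is likewise set by those that remain and does not show that the spread shrinks with depth. Those 5 wells lay at 22.3 to 31.5, apart from the other 14, which reached at most 12.9. The labels do not say which organoid, day or condition a well held, so a well may hold any of the pooled conditions and is no replicate of one.

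Over these wells the other genes of the cells spanned 2.14-fold (IGF2BP1) to 7.82-fold (LIN28B), the latter resting on D12, where LIN28B had 7 counts and a level of 0.198 (0.0797 to 0.408) and the next lowest well was at 0.467. NFIX spanned 5.92-fold, and in the nuclei HMGA2 had the smallest range of the 9 genes. NFIX ran from 0.612 over a median of 1.31 to 3.62, LIN28B from 0.198 over 0.748 to 1.55 and ZBTB20 from 2.81 over 6.33 to 11.4 across the wells of the cells. NFIB ran from 7.67 over 14.3 to 25.8 and NFIA from 15.8 over 22.1 to 38.6. IGF2BP1, IGF2BP2 and IGF2BP3 stayed within 2.14-fold, 2.20-fold and 2.64-fold. The ranges of IGF2BP2 and IGF2BP3 rest on D12, at 4.50 and 3.43, where the next lowest wells were at 7.26 and 5.55. In the nuclei every gene but LIN28A stayed within 3.39-fold, the range of LIN28B. That range rests on well A1, where LIN28B had 5 counts and a level of 0.356 (0.116 to 0.831), and the next lowest well was at 0.691. Well D12 gave the lowest level of LIN28B, HMGA2, IGF2BP2, IGF2BP3 and NFIB and the highest of ZBTB20.

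**Figure D4:**
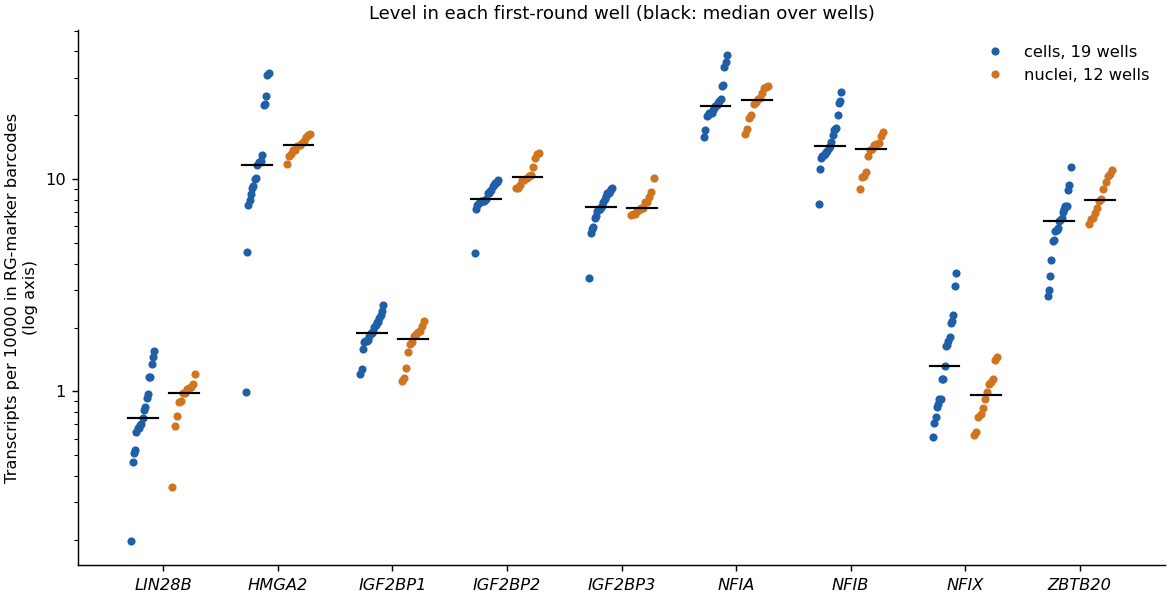
Level of 9 genes in RG-marker barcodes of each first-round well, in transcripts per 10000 on a log axis, with 19 wells of the cells (blue) and 12 of the nuclei (orange) and the median over wells in black. HMGA2 of the cells spans 0.991 to 31.5, and that of the nuclei 11.8 to 16.3.

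Early and late genes were compared over the wells. Levels were taken to fall into separate sets where the largest gap between wells, with at least 3 wells on each side, passed 25% of their range. HMGA2 of the cells passed that cut at 30.6%, NFIA of the cells narrowly at 25.2% and IGF2BP2 of the nuclei narrowly at 25.1%. IGF2BP1 of the nuclei, at 24.8%, fell just short. For single genes the rule used the levels, while r was taken on log2 levels. Since HMGA2 fell into separate sets of wells, its relations are given over the 14 wells of up to 12.9, where it ran against ZBTB20 with a Pearson r of -0.74 and a Spearman rho of -0.66 on log2 levels, and with an r of -0.61 without D12 and A8, the wells farthest from its median. Over the same wells the r of HMGA2 with the other late genes was nearer to 0 or positive. It was 0.57 with NFIB (rho 0.081), -0.06 with NFIA (rho -0.24, and an r of 0.26 without D12 and A8) and -0.25 with NFIX (rho -0.27). Without D2, which lay above a gap of NFIA, the r with NFIA was -0.29 over 13 wells (rho -0.48, and 0.017 without D12 and A8). Over all 19 wells, across both sets of HMGA2, its r with ZBTB20 was -0.85 and the rho -0.86, and -0.84 without D12 and A3. There its r was 0.57 with NFIB, 0.21 with NFIA and -0.24 with NFIX. Over the 12 wells of the nuclei HMGA2 and ZBTB20 had an r of 0.11 and a rho of 0.063, and 0.30 without A3 and A2. NFIA of the cells also had a gap, from 27.8 to 33.6 with 3 wells above it, as did NFIB of the nuclei, from 10.8 to 12.8 with 4 wells below it, and IGF2BP2 of the nuclei, from 11.5 to 12.5 with 3 wells above it. Relations within the larger set of wells of these were added after seeing the data. Among the 21 pairs of genes with no such gap over the 19 wells of the cells, LIN28B and NFIX had the lowest r, -0.76, with a rho of -0.86, and -0.81 without D12 and C7. In the nuclei the pair had an r of -0.23 and a rho of -0.22, and -0.57 without A1 and A4. NFIA and NFIB moved together over all wells, across these gaps. Their r was 0.68 and rho 0.64 over the 19 wells of the cells, and 0.49 without A11 and D2. Over the 12 wells of the nuclei r was 0.90 and rho 0.80, and 0.84 without A1 and A2. Within the larger sets the relation was weaker, with an r of 0.27 and a rho of 0.41 over the 16 lower wells of the cells, and 0.098 without D9 and D3. Over the 8 upper wells of the nuclei the 2 genes had an r of 0.39 and a rho of 0.38, and 0.37 without A8 and A5. The summed early and summed late levels, which are led by the abundant genes, had an r of 0.067 and a rho of -0.12 over all 19 wells. That value runs across separate sets of the late sum, and r was -0.29 (rho -0.30, and -0.60 without D12 and A4) over the 15 wells of its lower set and -0.11 (rho -0.46, and -0.32 without D12 and A8) over the 14 wells of lower HMGA2. When each gene weighed the same, as the mean of the log2 levels without LIN28A, neither mean had a gap in the cells. The early and late means had an r of -0.41 and a rho of -0.67 over the 19 wells, and -0.67 without D12 and A8, and over the 14 wells an r of -0.38 and a rho of -0.78, and -0.80 without the same wells. In the nuclei the means had an r of 0.36 and a rho of 0.077 over the 12 wells, and -0.32 without A4 and A1. The late mean fell into separate sets there, and the sign turned over the 8 wells of its upper set, which leaves out A1, A2, A3 and A4, with an r of -0.74 and a rho of -0.69, and -0.77 without A6 and A9, so the relation in the nuclei rests on which wells enter. Both sums of the nuclei also fell into separate sets, of 4 and 8 wells, and no r is given for them.

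Other measures were set against HMGA2 and ZBTB20 over the same 14 wells. The share of dividing barcodes, which ran from 8.72% to 51.7% of the RG-marker cells over the 19 wells, had an r of 0.66 with HMGA2 (rho 0.64, and 0.48 without D12 and A8) and -0.46 with ZBTB20 (rho -0.49, and -0.25 without D12 and D11). Summed markers of the cortical hem had an r of -0.77 with HMGA2 (rho -0.52, and -0.48 without D12 and A8) and 0.79 with ZBTB20 (rho 0.56, and 0.49 without D12 and D11). The summed RG markers had an r of 0.69 with HMGA2 (rho -0.073, and -0.46 without D12 and A8), and the median depth an r of 0.01 (rho 0.21). With ZBTB20 the summed RG markers had an r of -0.41 (rho -0.077, and 0.020 without D12 and D11). The median depth had an r of -0.15 with ZBTB20 (rho -0.20, and -0.42 without D12 and D11). The wells share a library, and the part of these measures in the relations was not tested.

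**Figure D5:**
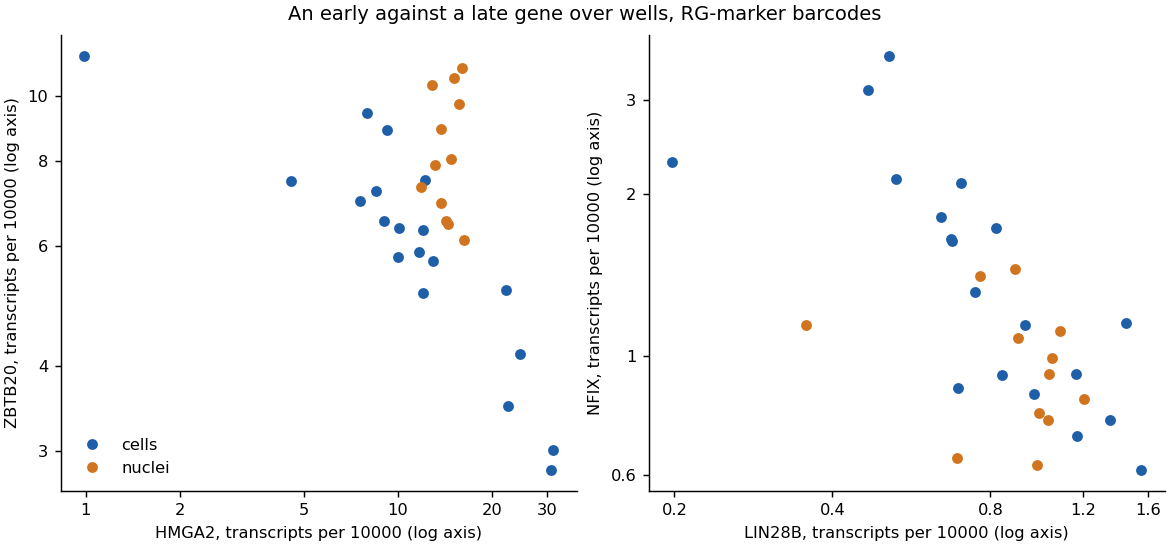
Levels in RG-marker barcodes of each well for HMGA2 against ZBTB20 and for LIN28B against NFIX, in transcripts per 10000 on log axes, with cells in blue and nuclei in orange. Well D12 of the cells had 0.991 HMGA2 and 11.4 ZBTB20, and well A4 had 30.9 and 2.81. The RG-marker barcodes of D12 had the lowest summed RG markers and the highest summed choroid markers of the wells of the cells.

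The genes most like each member over wells were ranked by Pearson r on the log2 scale, among 10069 genes with a median of at least 10 counts per well in the cells. For HMGA2 they were HMGA2-AS1, its antisense neighbor, DACH1, a transcription factor, and SRGAP3, with r of 0.95, 0.90 and 0.95 over the 14 wells. Whether counting used the strand is not stated in the sources used here, so HMGA2 and HMGA2-AS1 reads may not be separate. For ZBTB20 they were MIR99AHG (0.90), LINC00595 (0.88) and TERF2IP (0.88) over 19 wells, but 0.83, 0.53 and 0.68 over the 14, and for LIN28B NCALD (0.86), TRMT2B (0.84) and TRIT1 (0.82). NFIX was most like NFIC (0.84), another NFI gene, and NFIB most like CACNA2D1 (0.89). NFIA-AS2 ranked first for NFIA over the 19 wells, but over the 16 lower wells its r was 0.59 and that of ZNF33A, ranked second, was 0.61. IGF2BP1 was most like MCC (0.83), IGF2BP2 most like CDH8 (0.90) and IGF2BP3 most like TEAD4 (0.89). In the 12 wells of the nuclei, over 8846 genes, HMGA2 was most like RNPS1 (0.83), ZBTB20 most like MKLN1 (0.95) and LIN28B most like ZNF777 (0.96). None of the 3 genes ranked for a member in the cells was among its 3 in the nuclei. Lists of 3 genes out of 10069 and 8846 would seldom overlap by chance, so this is no result about a difference between the libraries. In both libraries these genes were picked for the highest r, and the r that chance alone gives was not tested.

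Cells and nuclei were set side by side within the same class. Whole cell against nucleus, several days against day 45 and the conditions pooled in each library cannot be told apart there. In RG-marker barcodes, 0 of the 9 genes with at least 100 counts differed by 2-fold, while 14.1% of all genes were higher in cells and 0.492% in nuclei. In neuron-marker barcodes NFIX was the 1 gene called, 2.50-fold higher in cells, where 22% of all genes were higher in cells and 1.71% in nuclei. The median log2 ratio of nuclei over cells was -0.24 in RG-marker and -0.41 in neuron-marker barcodes over all genes. Against that shift, 8 of the 9 genes lay above it in RG-marker barcodes, with ZBTB20 at 0.50, IGF2BP2 at 0.32, LIN28B at 0.30, HMGA2 at 0.20, NFIA at 0.08, IGF2BP3 at 0.03, NFIB at -0.12 and IGF2BP1 at -0.15, and NFIX lay below it at -0.71. In neuron-marker barcodes 6 lay above it, with NFIA at 0.40, NFIB at 0.19, LIN28B at 0.12, IGF2BP2 at 0.07, IGF2BP1 at -0.15 and IGF2BP3 at -0.33. HMGA2 at -0.49, ZBTB20 at -0.60 and NFIX at -1.32 lay below it there.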

How the data were processed

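Single cells and nuclei of H9 brain organoids were profiled by split-seq (Parse Biosciences Evercode). Per the study's methods, the authors demultiplexed reads with demuxFQ into 8 and 2 sub-libraries, allowing 1 mismatch, and ran spipe v.1.0.3 on GRCh38 with Ensembl release 108. The authors deposited 1 matrix per library with whole-number transcript counts, unfiltered and not normalized, and the deposited metadata give counts of genes, transcripts and mapped reads per barcode. Gene names are those of the deposited gene table.

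Kept barcodes (over 500 genes, over 1000 transcripts, mitochondrial share up to 20%) held 157306492 transcripts in cells and 72162726 in nuclei. In cells, 407 barcodes above 50000 transcripts held 28.5% of them. Classes were assigned after thinning to 1000 transcripts (seed 7), and levels are pooled counts per 10000 transcripts of a class with exact 95% intervals, which cover counting error only. A gene was called at 2-fold with at least 100 counts in both classes together, marker genes of the classes left out. With 1 sample per library no p-value is given. Doublets were kept, and leaving out the highest Scrublet scores was an alternative. The 10 genes and the gene lists were chosen with earlier results of these data known. Named genes are the 10 genes, up to 6 of each list with the largest ratios or highest counts, and the 3 genes most like each of the 10 over wells. The minimum numbers of markers for the classes were set with the data in view. The authors' own removal of doublets and background RNA is not part of the deposited counts and was not repeated. Fold calls and intervals were run on simulated Poisson counts, thinning on barcodes of the data, and likeness on a strong planted pair. These runs check the code and do not mimic the spread between barcodes or wells of these data. Coordinates and 3′ UTRs are of GENCODE release 44 on the authors' build, and microRNA sequences of RefSeq. Scripts ran on pandas 2.3.3, scanpy 1.11.5, scipy 1.17.1 and numpy 2.4.6 under Python 3.11.15.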

Additional observations from a re-analysis of the deposited data

Results flagged for a closer look

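NFIX was higher in neuron-marker than in RG-marker barcodes of the cells, with a log2 ratio of 0.28, and lower in those of the nuclei, with -0.32. In the cells the sign did not hold in every sub-library, where the ratio ran from -0.035 to 0.49. The median log2 ratio over all genes was 0.0027 in cells and -0.14 in nuclei. Each library is 1 sample, and the difference between them was not tested.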

How the results depend on the processing

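No paired analysis was possible because each library is 1 sample and the values come from no test. HMGA2 (RG-marker) and NFIB (neuron-marker) were called in both libraries under every alternative for the classes. The number of genes higher in RG-marker cells was 2 instead of 1 under the stricter marker rule, with 20% of the background profile subtracted and at 1.5-fold, ZBTB20 being added each time. The share of all genes called was taken under the main rule and at 1.5-fold only. Counts under the other alternatives have no such share beside them and are no result about the genes. Subtracting the same background from both classes widens every ratio by construction, so that step supports no call or direction. At 1.5-fold, 2 genes instead of 1 were higher in neuron-marker cells (background 13.8% of all genes, and 13.5% for RG-marker) and 2 instead of 1 in neuron-marker nuclei (17.7%), NFIA being added. NFIA was also called, for 2 in all, in neuron-marker nuclei after subtracting background, and when every barcode weighed the same, an alternative chosen after seeing the data. Neither count has the share over all genes beside it. In nuclei IGF2BP3 was an added gene higher in the RG-marker class under the stricter rule, after subtracting background and at 1.5-fold (24.3%). Of the log2 ratios of single genes between the classes, 193 stayed within the main counting interval under the alternatives and 75 moved out of it, and between the libraries 49 stayed and 11 moved, with no called ratio changing sign. The range of HMGA2 over wells of the cells was 2.65-fold in the 9 wells with at least 100 RG-marker barcodes, 6.81-fold without the 2 wells farthest from the median, 6.93-fold without D12 (chosen after seeing the data) and 1.68-fold in the 7 wells left above 3000 transcripts, where fewer wells enter by construction. HMGA2 with NFIA was found in 80.9% of RG-marker and 56.1% of neuron-marker cells, and in 88.1% and 40.2% of nuclei, without thinning. At 3000 transcripts these shares were 85.1%, 45.1%, 92.9% and 35.5%. LIN28A, with 13 counts in the nuclei, could not be compared there.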

Other observations

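The HMGA2 levels of RG-marker cells fell into separate sets of wells. In transcripts per 10000, the 14 wells of the lower set were D12 at 0.991, A8 at 4.54, D10 at 7.56, D11 at 7.94, D9 at 8.49, B7 at 9.06, D3 at 9.26, D7 at 10.03, B6 at 10.1, C7 at 11.7, C6 at 12.02, A2 at 12.02, D2 at 12.2 and A1 at 12.9. The 5 of the upper set were B9 at 22.3, C10 at 22.5, A11 at 24.6, A4 at 30.9 and A3 at 31.5. With wells of at least 20 RG-marker barcodes, 32 wells entered and the gap ran from 12.9 to 20.7. That gap passed the cut of 25% of the range only narrowly, at 25.4%. The added wells above it were C8 at 20.7, A5 at 20.99, C9 at 21.9, B10 at 23.3, B11 at 27.9 and A6 at 30.9, and those under it were C11 at 2.94, B3 at 4.05, A7 at 5.92, C5 at 7.98, B4 at 8.10, D4 at 8.94 and B5 at 9.33. What the wells held is not given in the labels, no group is assigned to them, and the sets were not compared.

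The NFIA levels of RG-marker cells had 3 wells apart from the other 16, B9 at 33.6, D2 at 35.6 and A11 at 38.6, while the others ran from 15.8 in D9 to 27.8 in D3. These sets were not compared either.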
